A study of Mus musculus with 18 samples.

Results

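The 10 genes described here encode heat shock proteins and chaperones: Hspa1a, Hspa1b, Hspa8, Hspa5, Hsp90aa1, Hsp90ab1, Hsph1, Dnajb1, Hspe1 and Hspd1. They were looked up in the table by symbol, and all 10 of them are among the 13043 genes of the count table and among the 10597 that passed the filter on low counts. RNA was measured by bulk MARS-seq, which counts unique molecular identifiers (UMIs) at the 3′ end of transcripts, in 18 libraries of macrophages sorted from mouse brain. Every recipient was a wild type C57BL6/C mouse that had been lethally irradiated, and every mouse received Ms4a3-Cre: R26-TdTomato: Cx3cr1-gfp marrow 32 weeks earlier. Monocyte-derived cells were sorted as GFP+ and TdTomato+, HSC-derived cells (from haematopoietic stem cells) as GFP+ only, and host cells as having no colour. There were 4 libraries of monocyte-derived leptomeningeal macrophages, 2 of HSC-derived leptomeningeal macrophages, 4 of monocyte-derived microglia, 4 of HSC-derived microglia and 4 of host microglia.

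The groups differ in more than origin and place. Ms4a3-Cre labels progeny of granulocyte and monocyte progenitors, so origin stands here for the presence or absence of that label. All donor cells carry a Cx3cr1-gfp allele, which host cells lack, and host cells stayed in an irradiated brain. Cells of the leptomeninges were rinsed from the intact brain following a first collagenase step, whereas microglia went through a further digestion with dissociation and a Percoll gradient. Place and preparation therefore cannot be told apart. Actinomycin D, a blocker of transcription, was present during preparation. Whether each replicate came from its own mouse is not stated, so p-values measure only how far these libraries spread. In bulk RNA a change in cell make-up and a change in RNA per cell cannot be told apart.

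Hsp70 proteins bind exposed stretches of unfolded proteins in a cycle driven by ATP. J proteins such as Dnajb1 deliver clients to Hsp70 and start ATP hydrolysis, Hsph1 (Hsp110) releases the nucleotide, and Hsp90 takes over clients such as kinases and steroid receptors. Hspa8 is the constitutive cytosolic Hsp70, while Hspa1a and Hspa1b are the stress-inducible pair, switched on by heat shock factor 1 (Hsf1). Hspa5 (BiP) is the Hsp70 of the endoplasmic reticulum (ER), and Hspd1 (Hsp60) with its lid Hspe1 (Hsp10) folds proteins in mitochondria.

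Promoter sequences are shown first because the members searched differ in their exact matches to stress elements. Imperfect units were not searched for, so an element may extend beyond the letters marked. Of the 10 members, 7 had an entry in the RefSeq promoter table (build GRCm38.p6, 10 windows of 300 bases, 250 of them upstream of the start site). Hspa8, Hsp90aa1 and Hsp90ab1 had none. The 250 upstream bases of the inducible pair are given whole because the 2 genes are near copies. Capitals mark the 2-unit heat shock element (GAANNTTC), found at -104 to -97 from the start site of each gene. Hspa1a lies at chr17:34969190-34972156 on the minus strand and its upstream window at chr17:34972157-34972406; Hspa1b lies at chr17:34956436-34959238 on the minus strand and its window at chr17:34959239-34959488.
Hspa1a: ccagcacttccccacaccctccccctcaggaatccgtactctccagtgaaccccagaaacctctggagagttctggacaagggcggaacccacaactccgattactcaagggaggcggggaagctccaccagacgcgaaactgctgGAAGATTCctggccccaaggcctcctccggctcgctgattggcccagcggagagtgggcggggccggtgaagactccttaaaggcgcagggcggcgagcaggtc
Hspa1b: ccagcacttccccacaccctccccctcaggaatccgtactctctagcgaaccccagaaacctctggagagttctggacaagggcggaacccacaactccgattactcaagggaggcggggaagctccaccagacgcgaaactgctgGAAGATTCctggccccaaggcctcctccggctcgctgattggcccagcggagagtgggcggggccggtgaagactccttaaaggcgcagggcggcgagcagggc
The upstream windows are identical at 247 of 250 bases. Counted from the first base shown, the differences from Hspa1a to Hspa1b are C44T, T47C and T249G. The coding sequences are 99.5% identical, whereas the 3′ untranslated regions, which hold the counted ends, are 51.4% identical over 877 aligned columns.

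A longer heat shock element of 3 alternating GAA and TTC units set 2 bases apart was found in Hspe1, Hspd1 and Hsph1. Hspe1 and Hspd1 stand head to head on chromosome 1 and overlap by 112 bases on opposite strands. Of the 2 Hspd1 windows, that directly upstream of the annotated gene had no match. The other, which lies inside the annotated Hspd1 gene, holds the same matches as the Hspe1 window. The stretch is shown on the plus strand, as read for Hspe1 (chr1:55088029-55088106); its capitals mark 2 overlapping 3-unit matches, at -89 to -77 and at -84 to -72. In Hspa5 the capitals mark an ER stress element, CCAAT and CCACG set 9 bases apart, at -65 to -47 (chr2:34771995-34772073, plus strand). In Hsph1 they mark a 2-unit element, TTCNNGAA, at -33 to -26 (chr5:149636337-149636399, minus strand); its 3-unit element lies at 37 to 49, in the transcribed part, and is not printed.
Hspe1: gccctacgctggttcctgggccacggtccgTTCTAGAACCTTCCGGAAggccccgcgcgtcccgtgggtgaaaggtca
Hspa5: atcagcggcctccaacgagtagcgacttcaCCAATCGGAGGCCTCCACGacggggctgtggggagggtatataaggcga
Hsph1: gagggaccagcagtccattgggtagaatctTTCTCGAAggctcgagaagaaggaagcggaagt
Both strands were searched. The 3-unit element occurs in 0.603% of the 32851 promoter windows of the table, the ER stress element in 0.119%, and a 2-unit element of either order, which every 3-unit element also holds, in 15.1%. Dnajb1 had no match in its windows. A match describes letters, not a bound site.

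Total counts per library ran from 154727 to 2440234. HSC-derived microglia replicates 3 and 4 and HSC-derived leptomeningeal replicate 2 were the 3 shallowest, and a count of 3 corresponded to 1.05 to 23.1 CPM (counts scaled to library size) over all libraries. The labelled cell types were checked on defining markers. P2ry12, a microglial receptor, averaged 363 ± 176 CPM in monocyte-derived leptomeningeal macrophages, 280.0 ± 58.3 CPM in HSC-derived leptomeningeal macrophages (n = 2), 1575 ± 115 CPM in monocyte-derived microglia, 1245 ± 226 CPM in HSC-derived microglia and 4688 ± 513 CPM in host microglia (SD, n = 4 unless given). Sall1, a microglial transcription factor, averaged 31.4 and 19.8 CPM in monocyte-derived and HSC-derived microglia, against 326 CPM in host microglia. Of the border macrophage markers, Lyve1 was at 200.3 to 515 CPM in leptomeningeal libraries, at 0 to 11.7 CPM in donor-derived microglia and at 0 in host microglia. Others were high in donor-derived microglia too: Mrc1 averaged 597 and 606 CPM in monocyte-derived and HSC-derived microglia, against 26.6 CPM in host microglia, and Pf4 407 and 621 CPM, against 4.82 CPM. Ms4a7 averaged 780.2 and 885 CPM there, above the 479.8 and 591 CPM of monocyte-derived and HSC-derived leptomeningeal macrophages, and 6.05 CPM in host microglia. The cells labelled donor-derived microglia thus had less Sall1 and P2ry12 and more of these border macrophage markers than host microglia.

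The inducible Hsp70 pair had the widest range of group means among the members, 5.01-fold for Hspa1a and 10.7-fold for Hspa1b. Hspa1a was higher in donor-derived microglia than in host microglia and lower in leptomeningeal macrophages than in microglia of the same origin. In CPM scaled by TMM, Hspa1a stood at 386, 209.7, 163 and 170.3 in monocyte-derived leptomeningeal macrophages, at 219.9 and 231 in HSC-derived leptomeningeal macrophages, at 1159, 977, 1265 and 1116 in monocyte-derived microglia, at 1272, 1329, 774 and 849 in HSC-derived microglia, and at 488, 519.8, 489 and 539 in host microglia. All 6 leptomeningeal libraries lay below all 4 host libraries, which lay below all 8 donor-derived microglia. HSC-derived microglia replicates 3 and 4, both shallow, were the 2 lowest of those 8. That these 2 lay above host microglia depends on the scaling. Their TMM factors were 0.741 and 0.807, against 1.14 to 1.17 in host microglia. Unscaled, Hspa1a and Hspa1b together took 0.114% and 0.117% of their counts, against 0.114% to 0.126% in host microglia. In the other donor-derived microglia the pair took 0.205% to 0.265%.

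In edgeR's quasi-likelihood test with p-values adjusted by Benjamini-Hochberg across the 10597 genes, Hspa1a rose in monocyte-derived over host microglia by 1.15 on the log2 scale (SE 0.21, adjusted p = 5.3e-05) and in HSC-derived over host microglia by 1.07 (SE 0.21, adjusted p = 1.9e-04). Between leptomeningeal macrophages and microglia it fell by 2.28 in monocyte-derived cells (SE 0.22, adjusted p = 9.4e-10) and by 2.25 in HSC-derived cells (SE 0.31, adjusted p = 5.3e-06). Without the 3 shallow libraries the rise in HSC-derived over host microglia was 1.36 (edgeR adjusted p = 9.7e-04). The 2 origins were not called different, with a 95% interval of the log2 difference of -0.32 to 0.49 in microglia and -0.52 to 0.62 in leptomeningeal macrophages.

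Hspa1b, its near copy, had the same order of groups. It was counted at 224, 56.0, 38.3 and 72.0 CPM in monocyte-derived leptomeningeal macrophages, at 75.6 and 116 CPM in HSC-derived leptomeningeal macrophages, at 1147, 847, 1104 and 994 CPM in monocyte-derived microglia, at 990.4, 1191, 769 and 607 CPM in HSC-derived microglia, and at 518, 578, 503 and 498 CPM in host microglia. In these TMM-scaled values no leptomeningeal library overlapped any microglial one, and no donor-derived microglial library overlapped a host one. The second separation depends on the scaling, as the unscaled shares of the pair given above show. Monocyte-derived leptomeningeal replicate 1 was the highest of its group for both genes.

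Hspa1b fell by 3.38 in monocyte-derived leptomeningeal macrophages over microglia (SE 0.43, edgeR adjusted p = 2.6e-05) and differed by -3.36 in the HSC-derived pair (SE 0.67, edgeR adjusted p = 0.0046). The HSC-derived call rested on HSC-derived leptomeningeal replicate 1, without which the edgeR adjusted p was 0.122. Over host microglia it differed by 0.96 in monocyte-derived microglia (SE 0.39, edgeR adjusted p = 0.0787) and by 0.78 in HSC-derived microglia (SE 0.39, edgeR adjusted p = 0.162), neither of which passed. When only the 2 groups compared were fitted, the monocyte-derived difference was 1.00 with an edgeR adjusted p of 1.1e-12, and the HSC-derived one 0.86 with an edgeR adjusted p of 0.0028. The monocyte-derived difference also passed without monocyte-derived leptomeningeal replicate 1 or replicate 3 in the joint fit, where the lowest edgeR adjusted p was 4.1e-05. With both genes summed, the pair rose by 1.06 (edgeR adjusted p = 0.0020) and 0.92 (edgeR adjusted p = 0.0069) over host microglia.

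**Figure D1:**
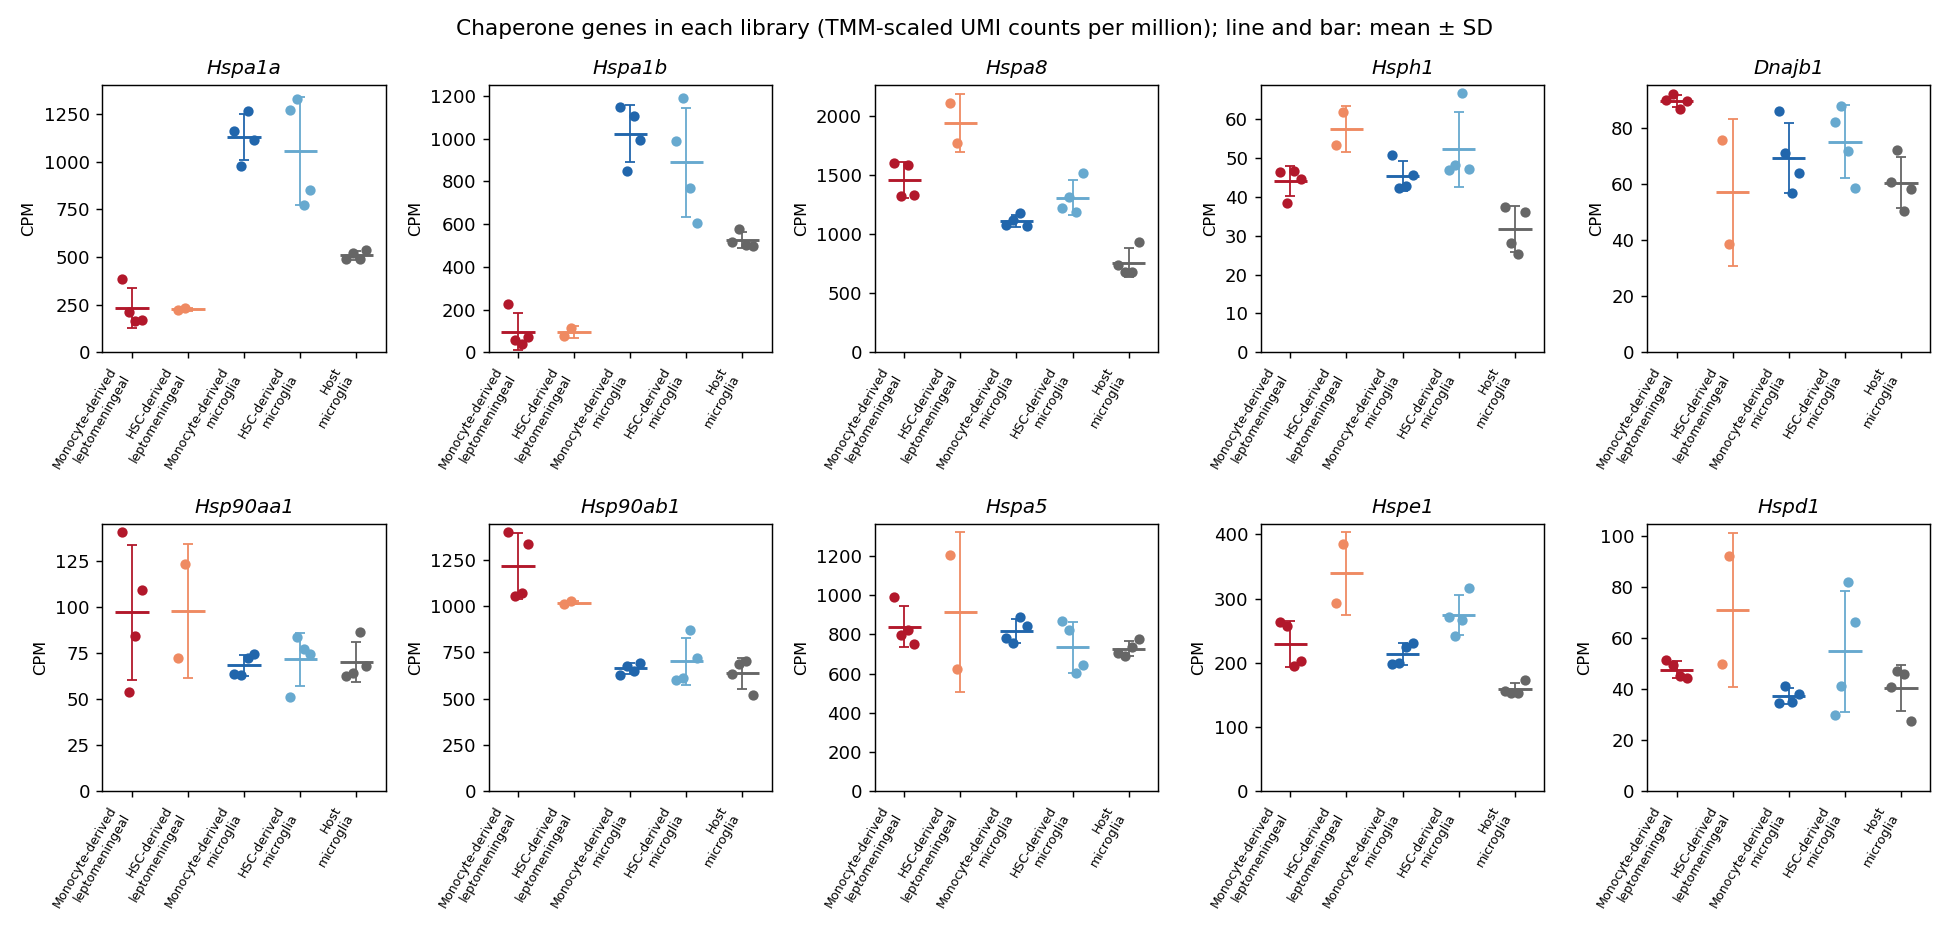
Each panel shows 1 chaperone gene in CPM (TMM-scaled, linear axis from 0) with 1 point per library, a line at the group mean and a bar of 1 SD, for 5 groups of 4 libraries (2 for HSC-derived leptomeningeal macrophages). Hspa1a and Hspa1b are highest in donor-derived microglia and lowest in leptomeningeal cells, while Hspa8 and Hsp90ab1 are highest in leptomeningeal macrophages.

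The ratio of the 2 near copies also differed by compartment. The Hspa1a to Hspa1b count ratio was 1.72, 3.75, 4.25 and 2.36 in monocyte-derived leptomeningeal macrophages, against 1.01, 1.15, 1.15 and 1.12 in monocyte-derived microglia. It was 2.91 and 2.00 in HSC-derived leptomeningeal macrophages, against 1.28, 1.12, 1.01 and 1.40 in HSC-derived microglia. Host microglia ran from 0.90 to 1.08. In leptomeningeal macrophages every ratio was above every ratio in microglia, although HSC-derived leptomeningeal replicate 2 rests on 30 Hspa1a and 15 Hspa1b counts and has an exact 95% interval of 1.04 to 4.00, which covers counting error only. In a two-sided exact permutation test of the log2 ratio, monocyte-derived leptomeningeal macrophages differed from monocyte-derived microglia 2.56-fold (p = 0.0286, adjusted p = 0.1 over 6 comparisons). That p is the smallest that 4 against 4 libraries allow; 2 against 4 cannot go below 0.0667, which the HSC-derived pair reached. The ratio was examined after the counts had been seen. UMI counts at the 3′ end do not scale with transcript length, but how well reads were assigned between the 2 genes was not tested, and Gm20481 overlaps Hspa1a on the opposite strand.

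**Figure D2:**
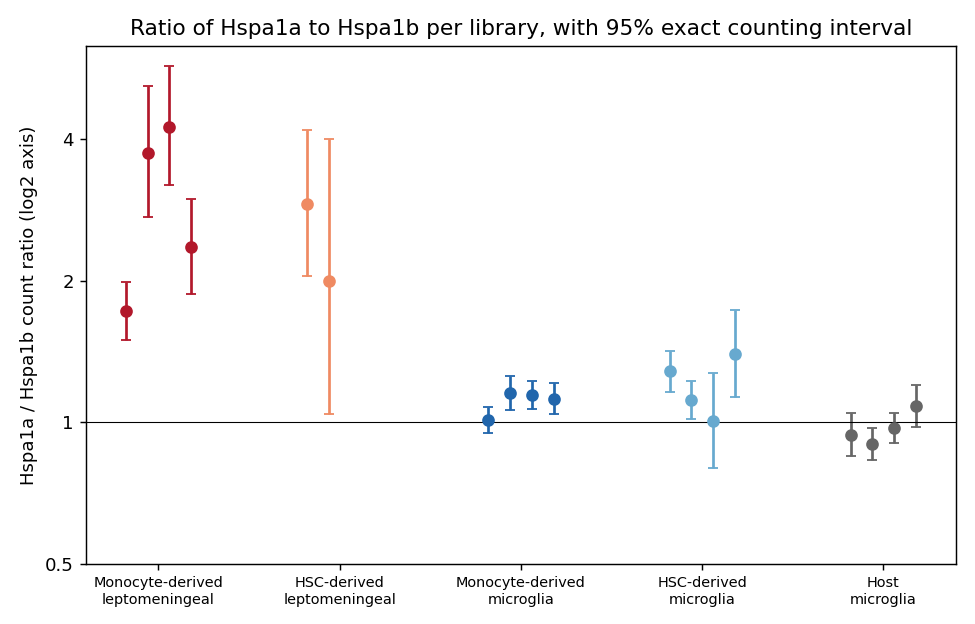
The Hspa1a to Hspa1b count ratio on a log2 axis, 1 point per library with its exact 95% counting interval, for the 5 groups. All 6 leptomeningeal libraries lie between 1.72 and 4.25 and all 12 microglial libraries between 0.90 and 1.40.

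Hspa8, the constitutive cytosolic Hsp70, had another order of groups: highest in leptomeningeal macrophages and lowest in host microglia. It measured 1596, 1320.0, 1581 and 1327 CPM in monocyte-derived leptomeningeal macrophages, 2109 and 1764 CPM in HSC-derived leptomeningeal macrophages, 1078, 1114, 1174 and 1071 CPM in monocyte-derived microglia, 1221, 1309.7, 1189 and 1511 CPM in HSC-derived microglia, and 742, 675, 682 and 932 CPM in host microglia. In these TMM-scaled values every donor-derived library was above every host library. That separation depends on the scaling. Unscaled, Hspa8 held 232 of 264795 counts in HSC-derived microglia replicate 3, a lower share than 1392 of 1303690 in host replicate 4. Hspa8 rose over host microglia by 0.55 in monocyte-derived microglia (SE 0.16, edgeR adjusted p = 0.0068) and by 0.79 in HSC-derived microglia (SE 0.16, edgeR adjusted p = 2.2e-04). In monocyte-derived leptomeningeal macrophages over microglia it was higher by 0.39 (SE 0.16, edgeR adjusted p = 0.0482), a call that was lost on leaving out any 1 host or monocyte-derived microglial library or monocyte-derived leptomeningeal replicate 1, 3 or 4, 11 of the 18 libraries, with edgeR adjusted p up to 0.135. In the HSC-derived pair it was 0.57 (SE 0.19, edgeR adjusted p = 0.0531), which did not pass. It passed without HSC-derived microglia replicate 4 alone (edgeR adjusted p = 0.0369). Without the 3 shallow libraries the difference was 0.75, but HSC-derived leptomeningeal replicate 1 was then the only library of its group.

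The partners of the Hsp70 cycle gave smaller differences. Hsph1, the nucleotide exchange factor, averaged 45.3 ± 3.9 CPM in monocyte-derived microglia, 52.1 ± 9.7 CPM in HSC-derived microglia and 31.7 ± 5.9 CPM in host microglia (SD, n = 4 each). It rose over host by 0.55 in monocyte-derived microglia (SE 0.16, edgeR adjusted p = 0.0073) and by 0.69 in HSC-derived microglia (SE 0.20, edgeR adjusted p = 0.0074), with no overlap between groups in TMM-scaled values. Unscaled, Hsph1 held 12 of 317872 counts in HSC-derived microglia replicate 4, a lower share than 52 of 1230130 in host replicate 1. The call in monocyte-derived microglia was lost without host replicate 3 (edgeR adjusted p = 0.0550). Counts were low, from 8 to 88 per library, and after thinning every library to the shallowest neither difference passed (edgeR adjusted p = 0.741 and 0.587). Hsph1 averaged 43.9 ± 3.8 CPM in monocyte-derived and 57.4 ± 5.9 CPM in HSC-derived leptomeningeal macrophages (n = 2), and was not called against microglia of the same origin.

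Dnajb1, the J protein that works with inducible Hsp70, was not called in any of the 4 comparisons between donor-derived groups, nor in donor-derived over host microglia. It measured 89.9, 92.2, 86.7 and 89.5 CPM in monocyte-derived leptomeningeal macrophages, against 85.9, 71.2, 56.8 and 63.8 CPM in monocyte-derived microglia. These groups did not overlap in TMM-scaled values, but did in unscaled shares of counts. Unscaled, Dnajb1 held 149 of 1507200 counts in monocyte-derived microglia replicate 1, a higher share than 128 of 1452760 in monocyte-derived leptomeningeal replicate 1. The difference between the groups was 0.36 (SE 0.16, edgeR adjusted p = 0.071). It passed without monocyte-derived microglia replicate 1 (edgeR adjusted p = 0.0282), without the 3 shallow libraries (edgeR adjusted p = 0.0311) and with only these 2 groups fitted (edgeR adjusted p = 0.0320). Dnajb1 was at 75.6 and 38.5 CPM in HSC-derived leptomeningeal macrophages, the lower of which rests on 5 counts. Without the 3 shallow libraries, Dnajb1 was higher in HSC-derived over host microglia by 0.50 (edgeR adjusted p = 0.0375). Against host microglia at 60.8, 72.3, 50.6 and 58.3 CPM, it rose in monocyte-derived leptomeningeal macrophages by 0.57 (SE 0.15, edgeR adjusted p = 0.0027). On thinning to the shallowest library this difference was 0.37 and did not pass (edgeR adjusted p = 0.396).

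Of the cytosolic Hsp90 pair, Hsp90ab1, the constitutive form, was higher in leptomeningeal macrophages. It measured 1400, 1053, 1071 and 1337 CPM in monocyte-derived leptomeningeal macrophages, against 629, 677, 650.2 and 693 CPM in monocyte-derived microglia. The lowest leptomeningeal library was above the highest microglial one, and the rise was 0.88 (SE 0.16, edgeR adjusted p = 3.7e-05). In HSC-derived cells it was at 1012 and 1024 CPM in leptomeningeal macrophages, against 601, 609, 871 and 720.1 CPM in microglia, a difference of 0.55 (SE 0.20, edgeR adjusted p = 0.0740). That difference passed without HSC-derived microglia replicate 3 alone (edgeR adjusted p = 0.0189). Without the 3 shallow libraries it was 0.75, with HSC-derived leptomeningeal replicate 1 as the only library of its group. Host microglia ran from 519.7 to 703 CPM and overlapped both donor-derived microglia. Hsp90ab1 rose over host microglia by 0.93 in monocyte-derived leptomeningeal macrophages (SE 0.16, edgeR adjusted p = 6.5e-06).

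Hsp90aa1, the inducible Hsp90, was called higher in monocyte-derived leptomeningeal macrophages over microglia by 0.53 (SE 0.20, edgeR adjusted p = 0.0372), though the groups overlapped. It stood at 141, 53.8, 84.2 and 109 CPM in the leptomeningeal libraries, against 63.4, 62.9, 72.2 and 74.2 CPM in the microglial ones. The call was lost in 6 of 10 other settings and on leaving out any 1 monocyte-derived microglial library or leptomeningeal replicate 1 or 4, with edgeR adjusted p up to 0.243 over the settings and up to 0.223 over the libraries left out. In no comparison of microglia was Hsp90aa1 called.

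Hspa5, the ER member, differed 1.26-fold between the highest and the lowest group mean. It averaged 840.4 ± 104 CPM in monocyte-derived leptomeningeal macrophages, 914 ± 410.3 CPM in HSC-derived leptomeningeal macrophages (n = 2), 818 ± 59.6 CPM in monocyte-derived microglia, 735 ± 131 CPM in HSC-derived microglia and 727 ± 38.3 CPM in host microglia (SD, n = 4 unless given). The highest mean, in HSC-derived leptomeningeal macrophages, is of 1204 CPM in replicate 1 and 624 CPM in replicate 2, a shallow library with 81 Hspa5 counts. In the joint fit of 18 libraries Hspa5 was called in none of the comparisons. Without the 3 shallow libraries, HSC-derived leptomeningeal replicate 1 was the only library of its group. Hspa5 in that library differed by 0.74 from host microglia, against 0.37 in the joint fit, and by 0.52 from HSC-derived microglia. With only the 2 groups fitted it was called higher in monocyte-derived over host microglia (0.21, edgeR adjusted p = 0.0275). In the joint fit, for monocyte-derived over host microglia the 95% interval was -0.16 to 0.50, and for monocyte-derived leptomeningeal macrophages over microglia -0.29 to 0.37.

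In the mitochondrial chaperonin, the lid gene Hspe1 was higher in donor-derived microglia and the barrel gene Hspd1 was not called. Hspe1 measured 198, 199.5, 225 and 231 CPM in monocyte-derived microglia and 271, 242, 266 and 317 CPM in HSC-derived microglia, against 155, 152, 153 and 173 CPM in host microglia. In these TMM-scaled values every donor-derived library was above every host library. This too depends on the scaling. Unscaled, Hspe1 held 52 of 264795 counts in HSC-derived microglia replicate 3, a lower share than 259 of 1303690 in host replicate 4. In monocyte-derived leptomeningeal replicate 3 it held 305 of 1809700, a lower share than in every host library. Hspe1 rose by 0.43 in monocyte-derived (SE 0.14, edgeR adjusted p = 0.0147) and by 0.78 in HSC-derived over host microglia (SE 0.14, edgeR adjusted p = 7.5e-05). The first call was lost without monocyte-derived microglia replicate 4 (edgeR adjusted p = 0.0545) and on thinning to the shallowest library (edgeR adjusted p = 0.132). Hspe1 was at 264, 257, 194.5 and 203 CPM in monocyte-derived and at 294 and 385 CPM in HSC-derived leptomeningeal macrophages.

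Hspd1 averaged 37.3 ± 3.2 CPM in monocyte-derived microglia, 54.9 ± 23.7 CPM in HSC-derived microglia and 40.4 ± 9.1 CPM in host microglia (SD, n = 4 each), with 95% intervals of the difference from host of -0.52 to 0.23 and -0.28 to 0.64. Its counts were between 12 and 131 per library. The genes share the divergent promoter printed above. Whether the 2 genes differ from each other in their response was not tested.

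**Figure D3:**
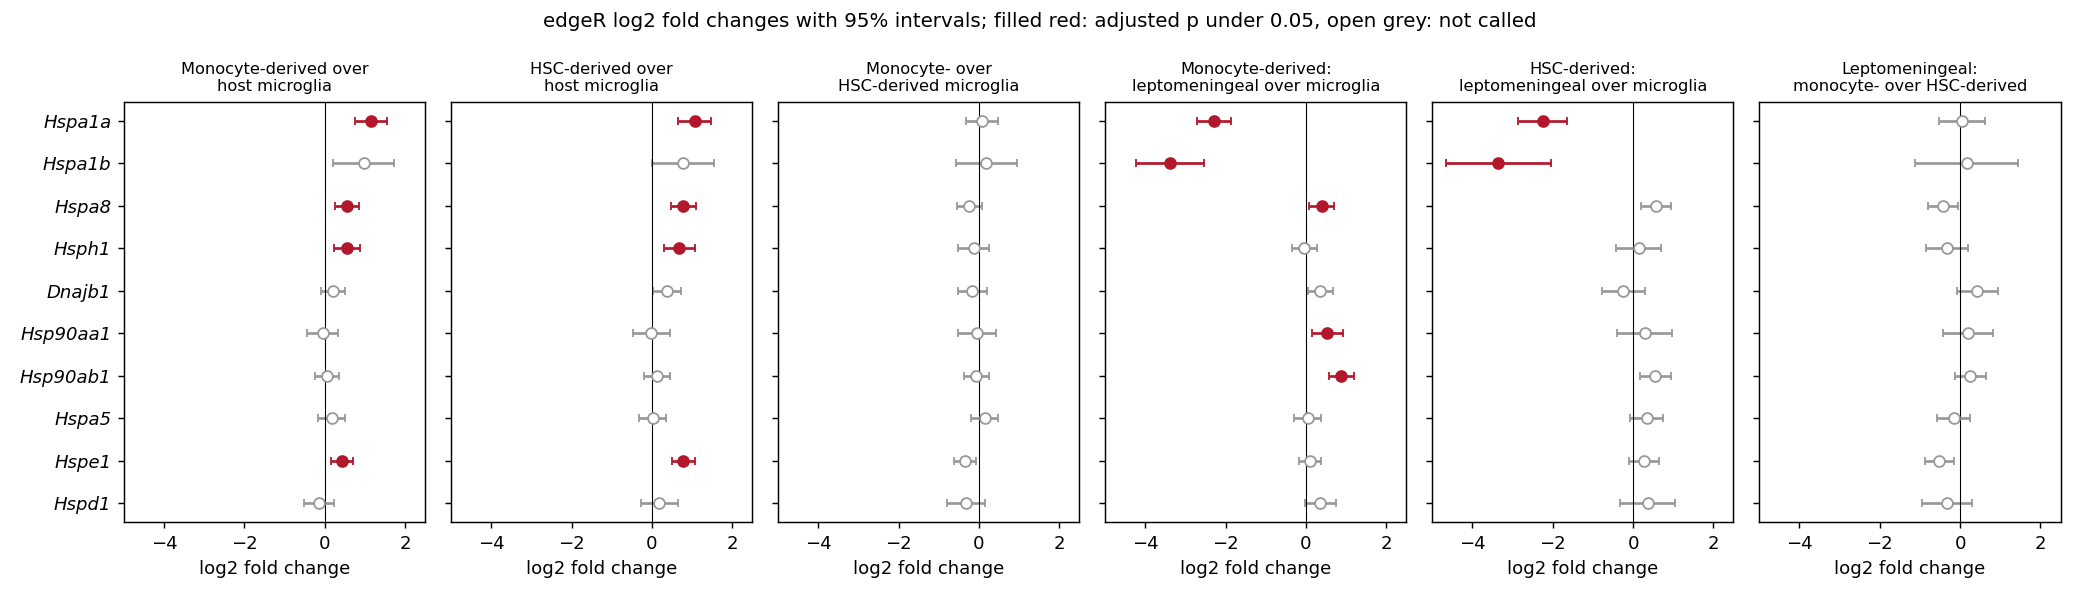
Log2 fold changes of the 10 members in 6 comparisons from 1 edgeR fit of 18 libraries. The 95% intervals are approximate, built from the SE and a normal distribution, and not adjusted for the number of genes. They can be narrower than the test implies. For Hspa1b in HSC-derived over host microglia the interval is 0.006 to 1.55, at an unadjusted edgeR p of 0.0688. Filled red points passed an adjusted p of 0.05 and open grey points did not. In both comparisons of leptomeningeal macrophages over microglia, Hspa1a and Hspa1b are the members called below 0.

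Counted over the list, 4 of 10 members were called in monocyte-derived over host microglia, all higher, where 30.2% of all tested genes were called, 15.1% higher and 15.1% lower. In HSC-derived over host microglia 4 were called, all higher, against 29.4% of all genes, 16.3% higher and 13.1% lower. The same 4, Hspa1a, Hspa8, Hsph1 and Hspe1, made up both counts, and both comparisons share the host libraries. The median log2 difference of the members was 0.32 and 0.53, against 0.01 and 0.00 for all genes. A share of 4 in 10 is not far from the background of calls.

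Between origins no member was called. In monocyte-derived over HSC-derived microglia 1.89% of all genes were called by edgeR, 0.123% higher and 1.76% lower, and 1 member had an unadjusted p under 0.05. In monocyte-derived over HSC-derived leptomeningeal macrophages 0.302% were called by edgeR, 0.16% higher and 0.142% lower, and 2 members had an unadjusted p under 0.05. DESeq2 also called 0 members in both, of 10 members with an adjusted p in the first and 9 in the second. Of all genes given an adjusted p, DESeq2 called 5.21% in the first and 1.94% in the second. In edgeR the interaction of origin with compartment called 0 members, with 0 at an unadjusted p under 0.05, and 0.0566% of all genes, 0.0566% higher and 0% lower. In DESeq2 it called 0 of the 6 members given an adjusted p. Of the 940 genes given an adjusted p there, 5.21% were called, 4.68% higher and 0.532% lower.

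Between compartments, 5 members were called in monocyte-derived cells, 3 higher and 2 lower, where 35.3% of all genes were called, 19% higher and 16.3% lower. In HSC-derived cells 2 were called, both lower, where 9.72% were called, 5.75% higher and 3.97% lower. Set against host microglia, in comparisons added after the levels had been seen, 8 members were called in monocyte-derived leptomeningeal macrophages, 6 higher and 2 lower (46.6% of all genes, 24.1% higher and 22.5% lower). Of the 6, Hsp90aa1 (0.49, edgeR adjusted p = 0.0427) lost its call in 6 of 10 other settings and on leaving out any of 8 libraries: host replicate 1, 2 or 4, monocyte-derived microglia replicate 1, 3 or 4, or monocyte-derived leptomeningeal replicate 1 or 4 (edgeR adjusted p up to 0.278). Hsph1 lost its call without host replicate 3 (edgeR adjusted p = 0.0631). Hsph1, Dnajb1 and Hspe1 also lost theirs on thinning to the shallowest library (edgeR adjusted p = 0.943, 0.396 and 0.122). In HSC-derived leptomeningeal macrophages 6 were called, 4 higher and 2 lower (33.6% of all genes, 18.3% higher and 15.3% lower). Hspa1a and Hspa1b were the 2 lower members in each, at -1.13 (SE 0.21, edgeR adjusted p = 4.1e-05) and -2.41 (SE 0.42, edgeR adjusted p = 2.5e-04) in monocyte-derived leptomeningeal macrophages. In HSC-derived ones they were at -1.18 (SE 0.30, edgeR adjusted p = 0.0024) and -2.58 (SE 0.65, edgeR adjusted p = 0.0073), both lost without HSC-derived leptomeningeal replicate 1 (edgeR adjusted p = 0.0529 and 0.133). Hspa8, Hsp90ab1, Hsph1 and Hspe1 were higher in both, Hspa8 by 0.94 (SE 0.16) in monocyte-derived and by 1.36 (SE 0.19) in HSC-derived leptomeningeal macrophages. Without HSC-derived leptomeningeal replicate 1, the HSC-derived comparison called 2 members, and 2042 of all genes against 3563 with it. Hsph1 also lost its call there without HSC-derived leptomeningeal replicate 2 and on thinning (edgeR adjusted p up to 0.787).

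Among the other genes of the chaperone network, Hsf1, the factor that drives inducible chaperones, was called in 2 comparisons. It averaged 65.7 ± 6.9 CPM in monocyte-derived leptomeningeal macrophages, 56.2 ± 25.0 CPM in HSC-derived leptomeningeal macrophages (n = 2), 83.7 ± 3.8 CPM in monocyte-derived microglia, 55.5 ± 21.9 CPM in HSC-derived microglia and 90.4 ± 10.3 CPM in host microglia (SD, n = 4 unless given). Hsf1 was lower in HSC-derived over host microglia by 0.57 (SE 0.19, edgeR adjusted p = 0.0206) and was not called in monocyte-derived over host microglia (-0.11, SE 0.15, edgeR adjusted p = 0.625), where Hspa1a rose in both. Hsf1 was also lower in monocyte-derived leptomeningeal macrophages over host microglia by 0.46 (SE 0.16, edgeR adjusted p = 0.0168), where Hspa1a was lower too, and differed from monocyte-derived microglia by -0.34 (SE 0.16, edgeR adjusted p = 0.0989). Its mRNA level does not report its activity.

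Of 16 further J proteins, most of them cytosolic, 4 rose and 0 fell in monocyte-derived over host microglia, and 3 rose and 3 fell in HSC-derived over host microglia (of all genes, 15.1% higher and 15.1% lower in the first, 16.3% higher and 13.1% lower in the second). Without the 3 shallow libraries the counts were 4 and 3 in monocyte-derived and 3 and 3 in HSC-derived over host microglia. Of all genes, 20% were then higher and 18.3% lower in the first, and 13.8% and 11.9% in the second. Dnaja2 rose by 1.05 (SE 0.20) in the first and Dnaja1, an Hsp70 partner, by 1.02 (SE 0.18) in the second, both called by edgeR (adjusted p = 9.5e-05 and 2.3e-05). Dnajb14, a J protein of the ER membrane, had the smallest p of the list in monocyte-derived over host microglia, at a mean of 127 CPM against 45.7 CPM (1.48, SE 0.15).

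Of 23 co-chaperones of Hsp70 and Hsp90, 7 rose and 2 fell in monocyte-derived leptomeningeal macrophages over microglia, where 19% of all genes were higher and 16.3% lower. Bag1, a nucleotide exchange factor of Hsp70, rose there by 0.99 (SE 0.14, edgeR adjusted p = 1.2e-06) and by 1.10 (SE 0.22, edgeR adjusted p = 8.0e-04) in the HSC-derived pair. Stip1, which links Hsp70 to Hsp90, rose by 0.70 (SE 0.15, edgeR adjusted p = 2.2e-04) in the monocyte-derived pair. Of 14 genes of the TRiC chaperonin and prefoldin, which fold actin and tubulin, 8 rose and 0 fell in monocyte-derived leptomeningeal macrophages over microglia (median 0.67, against -0.04 for all genes). Pfdn5, a prefoldin subunit, averaged 1096 CPM in monocyte-derived leptomeningeal macrophages, against 484 CPM in monocyte-derived microglia. In the HSC-derived pair 0 of the 14 were called in either direction by edgeR (median 0.41, against -0.06 for all genes). Of all genes, 5.75% were higher in that pair.

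Of 28 ER chaperones and genes of the unfolded protein response, 1 rose and 8 fell in HSC-derived over host microglia, and 1 rose and 2 fell in monocyte-derived over host microglia (of all genes, 13.1% and 15.1% were lower). Without the 3 shallow libraries 0 rose and 7 fell in HSC-derived and 2 rose and 6 fell in monocyte-derived over host microglia, so the counts of falls differed less (of all genes, 11.9% and 18.3% were then lower). Edem1, which directs misfolded ER proteins to degradation, was at 86.9 CPM in monocyte-derived and 57.8 CPM in HSC-derived microglia, against 164 CPM in host microglia. The falls were -0.91 (SE 0.14) and -1.42 (SE 0.17), with edgeR adjusted p = 1.6e-06 and 2.3e-08. Of 5 small heat shock proteins tested, 1 rose and 2 fell in monocyte-derived leptomeningeal macrophages over microglia (median 0.33, against -0.04 for all genes). Of all genes, 19% were higher and 16.3% lower there. Hspb1 (Hsp27), which holds unfolded proteins without ATP, fell by 1.42 in this comparison (SE 0.25, edgeR adjusted p = 2.7e-05). In the HSC-derived pair it averaged 3.44 CPM, below the level of 3 counts, against 41.0 CPM.

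Immediate early genes, which respond within minutes to stimulation and to tissue dissociation, were higher in leptomeningeal macrophages, where Hspa1a and Hspa1b were lower. Of 20, 19 rose and 0 fell in monocyte-derived leptomeningeal macrophages over microglia (median 2.40) and 18 rose and 0 fell in the HSC-derived pair (median 1.80). Of all genes, 19% were higher and 16.3% lower in the first, and 5.75% higher and 3.97% lower in the second. Egr1, an early transcription factor, averaged 2744 CPM in monocyte-derived leptomeningeal macrophages, against 325 CPM in monocyte-derived microglia (3.08, SE 0.21, edgeR adjusted p = 1.1e-13). The summed level of the 20 genes ran from 21391 to 27020.0 CPM in monocyte-derived leptomeningeal libraries and from 10252 to 21006 CPM in HSC-derived ones, against 4528 to 5426 CPM in monocyte-derived microglia, 2971 to 6400.2 CPM in HSC-derived microglia and 3591 to 5275 CPM in host microglia. HSC-derived microglia replicates 1 and 2 lay above every host library in this sum (6400.2 and 6368 CPM) and the shallow replicates 3 and 4 below every one (3223 and 2971 CPM), while monocyte-derived microglia overlapped the host. In HSC-derived over host microglia 3 of the 20 rose and 0 fell, and without the 3 shallow libraries 10 rose and 1 fell. Of all genes there, 16.3% were higher and 13.1% lower, and 13.8% and 11.9% without those libraries. In monocyte-derived over host microglia 3 rose and 1 fell, and without those libraries 6 rose and 2 fell. Of all genes in this comparison, 15.1% were higher and 15.1% lower, and 20% and 18.3% without those libraries. In summed Hspa1a and Hspa1b, scaled by TMM, every donor-derived microglial library lay above every host one. In unscaled shares of counts, HSC-derived microglia replicates 3 and 4 did not. The part of preparation in either difference was not tested.

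**Figure D4:**
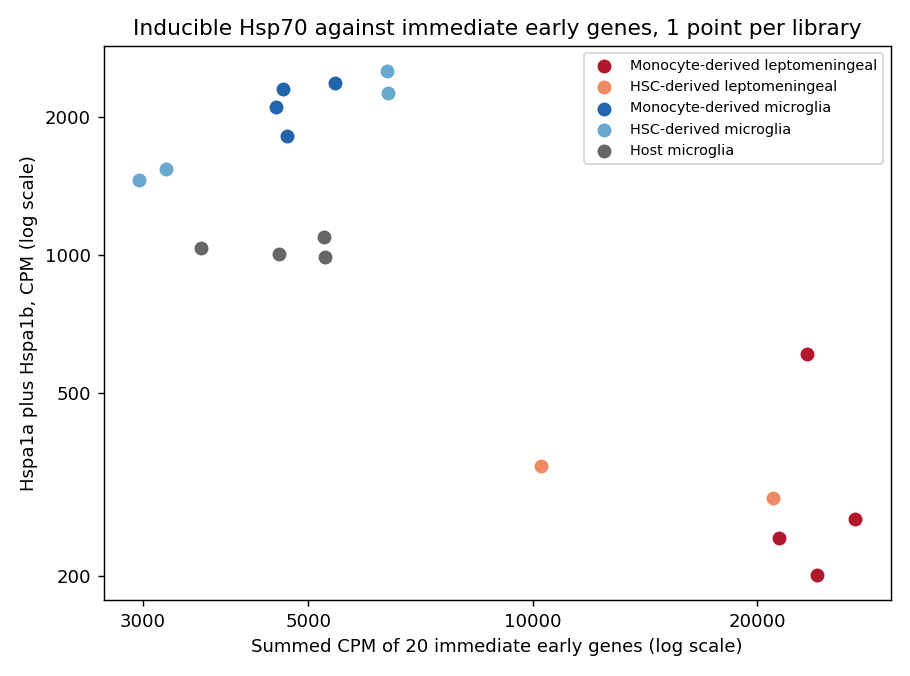
Summed Hspa1a and Hspa1b (TMM-scaled CPM, log axis) against the summed TMM-scaled CPM of 20 immediate early genes (log axis), 1 point per library. The 6 leptomeningeal libraries lie at 10252 CPM or more of immediate early genes and at 611 CPM or less of the pair; the 8 donor-derived microglia lie above the 4 host microglia on the vertical axis, at overlapping positions on the horizontal one.

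Markers of other cells and the share of ribosomal protein genes also differed between groups. The sum of 14 T and NK cell markers ran from 547 to 1057 CPM in monocyte-derived leptomeningeal macrophages and from 316 to 514 CPM in HSC-derived ones, against 131 to 180.4 CPM in monocyte-derived microglia, 5.12 to 181 CPM in HSC-derived microglia and 27.2 to 59.6 CPM in host microglia. The sum of 8 monocyte and neutrophil markers was 1676 to 3430 CPM and 347 to 546 CPM in monocyte-derived and HSC-derived leptomeningeal macrophages, against 65.7 to 140.5 CPM, 97.8 to 133 CPM and 9.38 to 15.0 CPM in monocyte-derived, HSC-derived and host microglia. Cd3g and Klrb1c were at 0 in all HSC-derived microglia. Chil3, S100a8, S100a9, Ngp and Camp were at 0 in all host microglia, Chil3, S100a9 and Camp in all HSC-derived microglia, and Chil3, Ngp and Camp in both HSC-derived leptomeningeal libraries. The sum of 8 choroid plexus, vessel and fibroblast markers was 2086 to 3515 CPM in host microglia, where 4 of them were at 0. It was 14.7 to 173 CPM in monocyte-derived and 24.7 to 495 CPM in HSC-derived microglia, and 60.4 to 335 CPM in the leptomeninges. The sum of 6 neuron and glia markers was 199 to 246 CPM in host microglia. It was 72.2 to 86.9 CPM in monocyte-derived and 64.6 to 318 CPM in HSC-derived microglia, and 131 to 439 CPM in the leptomeninges. Ribosomal protein genes took 13.7% to 14.6% of counts in monocyte-derived and 15.2% to 19.1% in HSC-derived leptomeningeal macrophages, against 6.52% to 7.26% in monocyte-derived microglia, 8.68% to 14.1% in HSC-derived microglia and 5.01% to 5.94% in host microglia. Their part in the differences of the chaperone genes was not tested.

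Across the 18 libraries, the genes whose log2 CPM was most like each member were ranked by Pearson's r among 3302 genes, as a description in which group and depth are shared by all points. Hspa1a and Hspa1b were each other's nearest gene (r = 0.97), and r was 0.87 after group means were removed. Next for Hspa1a came Rcbtb2 (r = 0.96) and Rnase4 (r = 0.95), and for Hspa1b F11r (r = 0.95) and Capn3 (r = 0.94). Hspa8 was nearest to ribosomal protein genes, Rpl22l1 (r = 0.96), Rps15a (r = 0.95) and Rps24 (r = 0.95). Hspe1 was nearest to Cacybp (r = 0.92), a binding protein of the co-chaperone list, and Hsp90ab1 to Pitpna (r = 0.93). The nearest genes of Hsp90aa1 and Hspa5 were less close, Mrtfa at r = 0.75 and Dock11 at r = 0.86.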

How the data were processed

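RNA of 18 sorted brain macrophage libraries was read from 1 table of UMI counts per gene that the authors deposited; its scaled and log-transformed columns were not used. The genome build is mm10, per the submitters' processing notes, and neither the aligner nor the counting program is stated there. Of 20 count columns over 13043 genes, 2 could be tied to no sample and were left out. Total counts ran from 154727 to 2440234. The filterByExpr step of edgeR (version 4.0.16, in R 4.3.3, minimum count 10) left 10597 genes. Counts were scaled by TMM, and 1 quasi-likelihood model (robust, a coefficient per group, no replicate block) was fitted to all 18 libraries. Tests were two-sided, and p-values were adjusted by Benjamini-Hochberg across the 10597 genes, with 0.05 as threshold. The code was tested on simulated counts. No 2 replicates agreed within sampling noise (chi-square per degree of freedom of 1.43 to 11.2).

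Members and lists were chosen with earlier results of these data known. Genes that could be named were all members, up to 2 genes with the smallest p per list and comparison, Hsf1, and the 3 genes most like each member (mean of at least 50 CPM). All members and Hsf1 are printed, but only some of the others. The log2 values are fold changes of the model. The ratio of Hspa1a to Hspa1b was tested by exact permutation over libraries. Alternatives were DESeq2 1.42.0, other scalings and filters, a replicate block, only the groups compared, thinning, leaving out the 3 shallow libraries or each library in turn, and summing Hspa1a with Hspa1b. Promoter sequences come from RefSeq (GRCm38.p6). Intervals of the Hspa1a to Hspa1b ratio and floors cover counting error only. Intervals of log2 differences were built from the SE of the edgeR fit, which includes the spread between libraries. They assume a normal distribution and are approximate.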

Additional observations from a re-analysis of the deposited data

Results flagged for a closer look

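A single library stood apart from the other 3 of its group in 2 of 40 sets of a member and a group of 4 libraries, by Dixon's criterion, where chance flags about 1 in 20. Hsph1 was at 66.6 CPM in HSC-derived microglia replicate 3, a shallow library with 13 Hsph1 counts, against 46.8 to 48.1 CPM in the others. Hspe1 was at 173 CPM in host microglia replicate 4, against 152 to 155 CPM in the others. In TMM-scaled values this library stayed below every donor-derived one.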

How the results depend on the processing

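No member's difference with an unadjusted p under 0.05 changed sign in the alternatives run. Hspa1a kept its calls in all alternatives run, except in HSC-derived leptomeningeal macrophages over host microglia without HSC-derived leptomeningeal replicate 1. The number of members called in monocyte-derived leptomeningeal macrophages over microglia was 5 (35.3% of all genes called). It was 3 with upper-quartile scaling, with the replicate block and with thinning to the shallowest library (37.1%, 33.4% and 24.3% of all genes). When 1 library was left out it was 3 to 5, with 3137 to 4024 genes called. In the HSC-derived pair it was 2 (9.72% of all genes called), and 4 by DESeq2 (9.03% of all genes). Without the 3 shallow libraries, HSC-derived leptomeningeal replicate 1 was the only library of its group, so that count is not given. In monocyte-derived leptomeningeal macrophages over host microglia it was 8 (46.6% of all genes), and 4 with thinning (35.8% of all genes). In HSC-derived ones over host microglia it ran from 2 to 6 with 1 left out, where 2042 to 3776 genes were called.

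Over all genes, thinning gave 750 calls in monocyte-derived and 1118 in HSC-derived over host microglia, 1082 and 488 between compartments in monocyte-derived and HSC-derived cells, 1592 and 1608 for monocyte-derived and HSC-derived leptomeningeal macrophages over host microglia, and 3 for the interaction. With only the groups compared, the counts were 2068 in HSC-derived over host microglia, 20 between origins in microglia, 16 between origins in leptomeningeal macrophages, 205 between compartments in HSC-derived cells and 1 for the interaction. Without the 3 shallow libraries, 50 and 72 genes were called between origins in microglia and in leptomeningeal macrophages; DESeq2 called 552 and 70, and 49 for the interaction. With 1 library left out, counts ran from 31 to 555 between origins in microglia, 12 to 90 between origins in leptomeningeal macrophages, 366 to 1242 between compartments in HSC-derived cells, 2042 to 3776 in HSC-derived leptomeningeal macrophages over host microglia, and 0 to 40 for the interaction. The cause of these shifts was not tested, except that thinning and leaving out libraries remove counts.

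Deviations of libraries with the same replicate number correlated at r of -0.32 to 0.32 over 32 pairs, 1 over 0.1. In 12 of the 32 the library correlated best with its own number in the other group. Both extremes of r came from HSC-derived microglia against HSC-derived leptomeningeal macrophages, at replicates 1 and 2. The deviations of these 2 leptomeningeal libraries from their own mean are exact opposites, so the 2 values are not independent. With so few libraries per group, these correlations cannot decide whether the numbers pair samples. With the replicate block, Hspa8 and Hsp90aa1 lost their calls in monocyte-derived leptomeningeal macrophages over microglia (edgeR adjusted p = 0.0516 and 0.0566), and Hspa8 gained one in the HSC-derived pair (edgeR adjusted p = 0.0494). Upper-quartile scaling shifted the median of all genes to -0.11 in monocyte-derived leptomeningeal macrophages over microglia. In the 3 shallow libraries Hsph1 rests on 8 to 13 counts, Dnajb1 on 5 to 15, Hspd1 on 12 to 17 and Hsp90aa1 on 15 to 19.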
